A study of Mus musculus with 12 samples.

Results

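The 9 genes described here, *Adnp*, *Pogz*, *Ash1l*, *Ankrd11*, *Tbl1xr1*, *Foxp1*, *Med13l*, *Cul3* and *Dyrk1a*, encode regulators outside the CHD family whose human counterparts are linked to autism. They were chosen by symbol, and all 9 were found among the 14244 rows of the gene table. Gut epithelial cells of 12 male C57BL/6 littermates aged 8 weeks were compared, 5 wild type (WT) and 7 Chd8L+/-. Chd8L+/- mice are heterozygous for a germline deletion of exons in the large isoform of *Chd8*, which encodes a chromatin remodeler, so every tissue carried the deletion and not the epithelium alone. The labels name the second group KO in its sample titles and CHD8+/- in its genotype. Each mouse gave 1 poly(A) RNA library. Recovered reads per library ranged from 15691662 to 20761315, and values are the deposited normalized counts, in which each library had been divided by a size factor.

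Most of these proteins act in the nucleus on the packaging or reading of DNA. ADNP and POGZ are zinc finger proteins that associate with heterochromatin protein 1, ASH1L methylates lysine 36 of histone H3, and ANKRD11, TBL1XR1, FOXP1 and MED13L act with corepressors, transcription factors or the Mediator complex that bridges factors and RNA polymerase II. CUL3 is the scaffold of ubiquitin ligases that use BTB-domain adaptors, and DYRK1A is a kinase with roles in cell cycle exit. All are widely expressed genes that are also used outside the nervous system.

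The values of *Chd8*, the gene altered in these mice, were read first, though they cannot by themselves show the deletion. *Chd8* was counted at 1002, 1050.2, 934, 955 and 823 in WT replicates 1 to 5 and between 1084 and 1483, with a median of 1281, in Chd8L+/-, so that every Chd8L+/- library stood above every WT library. The log2 fold change, Chd8L+/- minus WT, was 0.44 ± 0.10 (SE, n = 5 and 7), with an adjusted p of 0.121 from limma. A count over the whole gene does not separate the deleted exons from the others, and total *Chd8* was higher, not lower, in the heterozygotes. By real-time PCR of gut epithelial cells, the paper measured less of the deleted exons and more of an upstream exon in Chd8L+/-. It also reported reduced CHD8 staining in the gut. Epithelial markers were abundant in every library, with a summed level of 139647 to 271186 over 8 genes. WT replicate 2 stood apart from the other WT libraries on the first principal component (39.7% of the variance), at 41.0 against -67.5 to -26.2, and lay within the Chd8L+/- range of 0.26 to 42.7. Without it the adjusted p of *Chd8* was 0.00675, and calls of the genes below that change without it are given both ways. Without it 14.0% of all genes were called higher in Chd8L+/- and 13.6% lower. Each adjusted p given below without that library is to be read beside those shares.

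Levels of different genes can be set side by side only per length, here as normalized counts per kilobase of the longest annotated transcript in GENCODE M21. On that scale the WT order was *Cul3* (376 ± 38.6, SD, n = 5), *Ankrd11* (367 ± 40.4), *Dyrk1a* (233 ± 21.3), *Tbl1xr1* (124 ± 20.4), *Foxp1* (81.8 ± 21.5), *Ash1l* (67.0 ± 16.6), *Med13l* (52.9 ± 8.78), *Pogz* (45.1 ± 13.6) and *Adnp* (9.97 ± 2.11). *Cul3* and *Ankrd11* differed by less than their spread, as did each neighbouring pair from *Foxp1* to *Pogz*, whereas the steps from *Ankrd11* to *Dyrk1a*, from *Dyrk1a* to *Tbl1xr1*, from *Tbl1xr1* to *Foxp1* and from *Pogz* to *Adnp* were larger than the SDs. Among all tested genes, *Ankrd11* and *Cul3* stood at the percentiles 80.9 and 79.3 of this scale, *Tbl1xr1* at 54.3 and *Adnp* at 15.4. In Chd8L+/- *Ankrd11* came first (428 ± 53.7, n = 7) and *Cul3* second (363 ± 63.3). With the union of all annotated exons as the length, the WT value of *Ankrd11* was 188 and that of *Cul3* 363, so the tie at the top held for the longest transcript and not for the exon union.

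**Figure D1:**
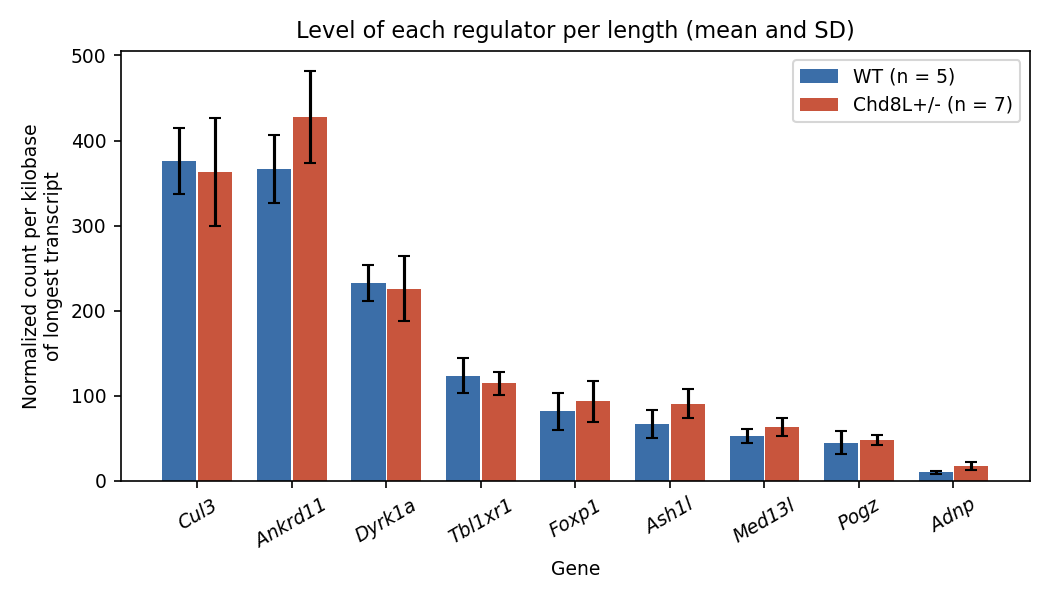
Normalized counts per kilobase of the longest annotated transcript for the 9 regulators, as the mean (bar) and SD (error bar) over 5 WT and 7 Chd8L+/- libraries. *Cul3* and *Ankrd11* stand highest, at 376 and 367 in WT, and *Adnp* lowest, at 9.97.

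The low level of *Adnp* has a limit in the annotation. Of the 5350 exonic bases of *Adnp* (GRCm38, chr2:168180986-168207112, minus strand), 4393 (82.1%) are also annotated as exons of *Gm20716*, a gene on the same strand that is not a row of the table used here. How reads in shared exons were counted is not given in the sources used here. Over the 957 bases that are of *Adnp* alone, the same counts would be 51.4 per kilobase in WT and 90.5 in Chd8L+/-. *Foxp1* shared 3.16% of its exonic bases with a gene on its own strand, and the other 7 regulators shared none on their own strand.

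The regulatory sequence of the members can be shown for 8 of the 9, from RefSeq windows of build GRCm38.p6 that cover the bases just before an annotated start. *Ash1l* has no entry. The windows of the gene with the largest genotype difference and of the gene with the highest WT level per length are printed 5′ to 3′ on the gene's own strand, 250 bases each, with every CG dinucleotide in capitals.
Adnp, chr2:168207113-168207362, minus strand: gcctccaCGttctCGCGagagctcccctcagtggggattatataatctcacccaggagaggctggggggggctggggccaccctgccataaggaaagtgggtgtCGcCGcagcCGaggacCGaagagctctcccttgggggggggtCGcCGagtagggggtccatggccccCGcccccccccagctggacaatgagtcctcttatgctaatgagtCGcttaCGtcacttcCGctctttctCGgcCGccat
Cul3, chr1:80340691-80340940, minus strand: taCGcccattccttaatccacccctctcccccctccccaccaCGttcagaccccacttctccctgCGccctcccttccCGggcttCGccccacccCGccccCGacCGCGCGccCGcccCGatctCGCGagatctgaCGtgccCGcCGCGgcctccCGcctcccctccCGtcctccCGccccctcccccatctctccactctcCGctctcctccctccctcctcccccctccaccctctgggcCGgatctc
The *Adnp* window holds 15 CG and the *Cul3* window 23, searched as the letters CG, which read the same on both strands. Of all 32851 windows of that length, 92.1% hold at least 1 CG, the median is 6, 27.3% hold 15 or more and 13.3% hold 23 or more. *Med13l* had the most of the 12 member windows, with 51, and 1 of the 3 *Dyrk1a* windows the fewest, with 2.

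None of the 9 regulators passed an adjusted p of 0.05 in limma over all 12 libraries, beside 0.0234% of the 12808 genes tested (3 genes). Before adjustment, 2 were higher in Chd8L+/- at a limma p of 0.05 or less (called nominal below), *Adnp* and *Ash1l*, beside 12.5% of all genes, and none was lower, beside 11.8%. The fitted difference was above 0 for 6 and below 0 for 3, with a median log2 fold change of 0.19, beside 0.01 over all genes tested, of which 51.4% were above 0. The members are long: the 3267 tested genes whose longest transcript reached that of *Cul3*, the shortest, had a median of 0.10, and 64.5% of them were above 0. Once gene length and GC trends were taken out, the median of the 9 was 0.04, that of all genes -0.02, and *Ash1l* had 0.26. No member had every Chd8L+/- library above every WT library, beside 0.242% of all genes.

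Without WT replicate 2, *Adnp* (adjusted p = 0.0309) and *Ash1l* (adjusted p = 0.0209) passed in limma, both higher, beside 14.0% of all genes called higher and 13.6% called lower. At that background 1 gene of 9 would be called higher. Without that library the log2 fold change was 0.33 for *Foxp1*, -0.12 for *Cul3* and -0.10 for *Dyrk1a*, none of them past the threshold, and the median of the 9 was 0.29. DESeq2 on the recovered reads of all 12 libraries called *Adnp* alone, higher, beside 1.84% of all genes, and edgeR on the same reads called none of the 9. The remaining fits were added after the data were seen and also leave out WT replicate 2. DESeq2 called *Adnp* and *Ash1l* (15.0% of genes called higher), the fit with trends on length and GC content removed called *Adnp* (12.9%), and the fit with the number in the library name as a block called *Adnp*, *Ash1l* and *Med13l* (8.23%).

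**Figure D2:**
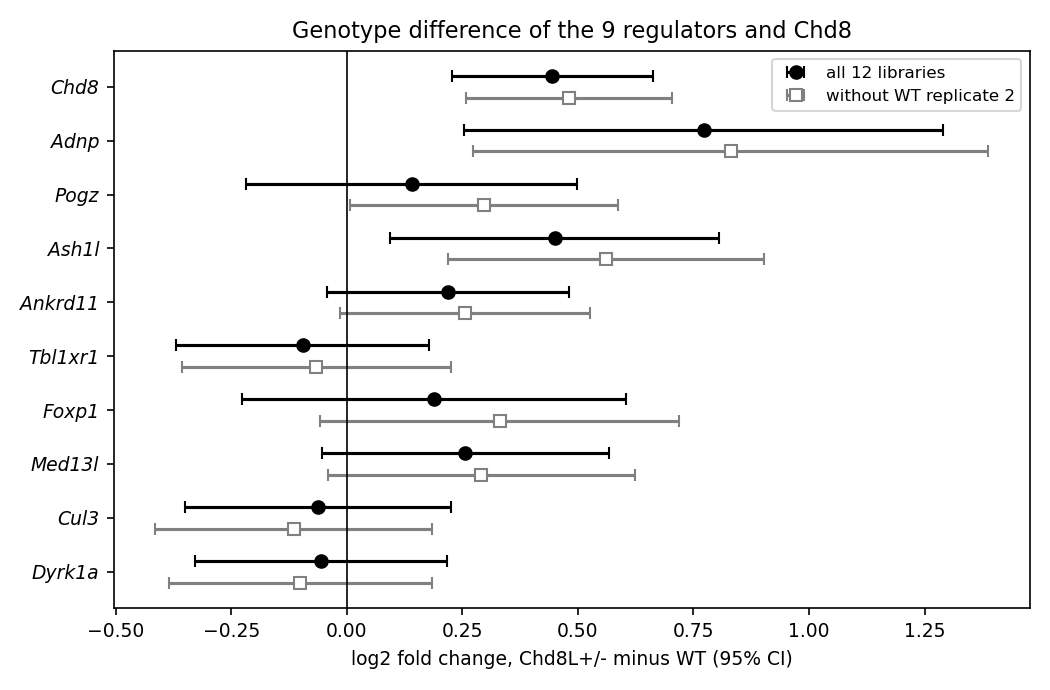
The log2 fold change (Chd8L+/- minus WT, on the log2 of the normalized count + 1) of *Chd8* and the 9 regulators with 95% confidence intervals from limma, over all 12 libraries (black circles) and without WT replicate 2 (open squares). Over all libraries the intervals of *Chd8*, *Adnp* and *Ash1l* lie above 0 and those of the other 7 regulators span it.

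*Adnp*, which encodes a homeodomain zinc finger protein of the ChAHP complex with CHD4 and HP1, showed the largest difference. It was counted at 56.9, 56.8, 56.5, 36.7 and 38.9 in WT replicates 1 to 5, and at 116, 119, 94.3, 78.5, 85.9, 48.3 and 64.3 in Chd8L+/- replicates 1 to 7. In all, 6 of 7 Chd8L+/- libraries were above the highest WT library, and replicate 6 fell inside the WT range. The means were 49.1 ± 10.4 (SD, n = 5) and 86.6 ± 25.8 (n = 7), a 1.71-fold difference (log2 fold change 0.77, 95% CI 0.25 to 1.29, adjusted p = 0.122 in limma). The two-sided exact permutation p was 0.0164, 1 of 9 unadjusted tests over the regulators, for which 792 assignments allow no p below 0.00126. These counts rest on 31 to 134 reads, for which counting error alone is 18.0% at the lowest, and, as above, on exons largely shared with *Gm20716*.

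*Pogz*, which encodes an HP1-binding zinc finger protein that takes HP1 off chromatin in mitosis, did not follow *Adnp*. It was counted at 308, 432, 217, 238 and 247 in WT replicates 1 to 5 and between 262 and 356, with a median of 295, in Chd8L+/-. WT replicate 2 was the highest of all 12 libraries, WT replicate 1 lay inside the Chd8L+/- range, and WT replicates 3, 4 and 5 were below every Chd8L+/- library. The log2 fold change was 0.14 (95% CI -0.22 to 0.50, exact permutation p = 0.419), and without WT replicate 2 it was 0.30 (95% CI 0.01 to 0.59, adjusted p = 0.115).

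The listed partners of ADNP and POGZ were the 3 HP1 genes, the remodeler gene *Chd4* and the paralog *Adnp2*. All 5 were above 0, beside 51.4% of all genes, with a median log2 fold change of 0.07. Nominally 1 was higher, beside 12.5% of all genes. That gene was *Cbx5*, for HP1 alpha, at 616 to 1687 in WT and 1059 to 1832 in Chd8L+/- (log2 fold change 0.63 ± 0.23, adjusted p = 0.136 in limma, 0.00508 without WT replicate 2). *Cbx3*, for HP1 gamma, had 0.30 ± 0.22. *Adnp2* was almost flat, at 257 ± 25.6 in WT and 270.0 ± 17.9 in Chd8L+/- (log2 fold change 0.07 ± 0.11).

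*Ash1l*, the histone methyltransferase gene, showed the second largest difference. It was counted at 929, 1038, 644, 699 and 593 in WT replicates 1 to 5 and at 1369.8, 1277, 1021, 832, 992, 885 and 1019 in Chd8L+/- replicates 1 to 7. WT replicates 1 and 2 overlapped the Chd8L+/- libraries, WT replicates 3, 4 and 5 were below all of them, and 2 Chd8L+/- libraries exceeded every WT library. The means were 781 ± 193 (n = 5) and 1057 ± 197 (n = 7), a log2 fold change of 0.45 (95% CI 0.09 to 0.81, adjusted p = 0.140, exact permutation p = 0.0366). Its gene lies at chr3:88950622-89079375 on the plus strand, and 2.37% of its exonic bases overlap an exon of *Dap3* on the other strand.

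Its list held 9 genes for partners of ASH1L and for enzymes that write or remove methylation of histone H3 lysine 36. Nominally 2 were higher and 1 lower, beside 12.5% and 11.8% of all genes. The median log2 fold change was 0.08. *Morf4l1*, whose chromodomain protein MRG15 works with ASH1L, was lower, at 933 to 1297 in WT and 754 to 854 in Chd8L+/- without overlap (log2 fold change -0.49 ± 0.10, adjusted p = 0.121). Of all genes, 0.273% had every Chd8L+/- library below every WT library. *Kdm2b*, for a lysine 36 demethylase, was at 92.8 to 340 in WT and 215 to 329 in Chd8L+/- (log2 fold change 0.77 ± 0.25, adjusted p = 0.125). In both cases the adjusted p was under 0.05 without WT replicate 2, at 0.00295 and 0.00338. In that fit 14.0% of all genes were called higher and 13.6% lower.

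*Ankrd11*, for an ankyrin repeat protein that binds p160 coactivators and histone deacetylases, was counted at 3268, 3425, 2953, 3318 and 2583 in WT replicates 1 to 5. In Chd8L+/- it ranged from 2777 to 4269.7 with a median of 3710.0. In all, 5 of 7 Chd8L+/- libraries were above the highest WT library, while replicates 1 and 6 lay inside the WT range. In limma its log2 fold change was 0.22 (95% CI -0.04 to 0.48, adjusted p = 0.277, exact permutation p = 0.0707). Its 4 listed partners, the paralog *Ankrd12* and the p160 genes, held no gene that passed nominally, with *Ncoa1* at 0.29 ± 0.14, *Ncoa2* at 0.15 ± 0.13 and *Ankrd12* at -0.21 ± 0.23.

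*Tbl1xr1*, for a WD40 subunit of the NCoR/SMRT corepressor complex, was counted at 1159, 1093, 924, 1147 and 769 in WT and between 792 and 1114, with a median of 925, in Chd8L+/-. All Chd8L+/- libraries lay inside the WT range. Its log2 fold change was -0.10 (95% CI -0.37 to 0.18, exact permutation p = 0.443). Its paralog *Tbl1x* had the opposite sign, at 660 to 902 in WT and 753 to 1187 in Chd8L+/- (log2 fold change 0.32 ± 0.13, adjusted p = 0.171), and the corepressor gene *Ncor1* had 0.31 ± 0.15. The difference between the paralogs was not tested. Of the 5 listed genes of the complex, 4 were above 0, beside 51.4% of all genes, and the median was 0.16. Nominally 1 was higher, beside 12.5% of all genes.

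*Foxp1*, for a forkhead transcription factor, was counted at 484, 852, 472, 551 and 576 in WT replicates 1 to 5. In Chd8L+/- replicates 1 to 7 it was at 518, 489.6, 697, 926, 875, 666 and 530.2. WT replicate 2 stood with the 2 highest Chd8L+/- libraries, replicates 4 and 5, and the groups overlapped over most of their range. Its log2 fold change was 0.19 (95% CI -0.23 to 0.60, exact permutation p = 0.386). Of its paralogs *Foxp4* had 0.21 ± 0.15, and *Foxp2* was under the filter of a mean of 10, with 0.99 to 5.04 in WT and 0 to 17.8 in Chd8L+/-. The 6 tested genes of its list had a median of 0.16, and 2 were higher nominally, beside 12.5% of all genes. They were the NuRD subunit genes *Mta1* (0.41 ± 0.15, adjusted p = 0.134) and *Gatad2b* (0.47 ± 0.19, adjusted p = 0.166). Without WT replicate 2 their adjusted p was 0.00817 and 0.0407, beside 14.0% of all genes called higher.

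*Med13l*, for a subunit of the kinase module that reversibly joins Mediator, was counted at 515, 535, 411, 592 and 404 in WT and between 442 and 752, with a median of 556, in Chd8L+/-. Of these, 3 Chd8L+/- libraries were above every WT library, and the other 4 overlapped WT. As a log2 fold change the difference was 0.26 (95% CI -0.05 to 0.57, adjusted p = 0.281, exact permutation p = 0.105). Its paralog *Med13* was nearer to 0, at 0.05 ± 0.18, and turned below 0 with length and GC trends removed (-0.14). *Med12* had 0.33 ± 0.15 and *Ccnc*, for the cyclin of the module, had -0.17 ± 0.13. The 25 tested core Mediator genes had a median of 0.00. Nominally 2 were higher and 1 lower, beside 12.5% and 11.8% of all genes. These included *Med1* (0.32 ± 0.10, adjusted p = 0.125) and *Med11* (-0.41 ± 0.16, adjusted p = 0.156). Without WT replicate 2 their adjusted p was 0.0196 and 0.0434, beside 14.0% of all genes called higher and 13.6% lower.

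*Cul3* was counted at 1874, 1525, 2004, 1757 and 1689 in WT replicates 1 to 5, and at 2022, 2128, 1659, 1601, 1219, 1708 and 1635 in Chd8L+/- replicates 1 to 7. Chd8L+/- held both the 2 highest libraries, replicates 1 and 2, and the lowest, replicate 5. With all libraries the log2 fold change was -0.06 (95% CI -0.35 to 0.23, exact permutation p = 0.660), and it was 0.02 without Chd8L+/- replicate 5. The 18 genes for its partners and adaptors had a median of -0.05. Nominally none was higher, beside 12.5% of all genes, and 3 were lower, beside 11.8%. They included *Kctd13*, for an adaptor that brings RhoA to the ligase, at 101.5 to 243 in WT and 74.7 to 117 in Chd8L+/- (log2 fold change -0.63 ± 0.20, adjusted p = 0.122, and 0.0115 without WT replicate 2), and *Nedd8*, for the modifier that activates cullins (-0.28 ± 0.12, adjusted p = 0.165).

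None of the 7 other cullin genes passed nominally. Their log2 fold changes ran from -0.22 (*Cul7*) to 0.23 (*Cul2*), and *Cul4a* had 0.15 ± 0.10. Per kilobase, *Cul1* (443 ± 68.8) and *Cul3* were the most highly expressed cullins in WT and *Cul9* (7.21 ± 2.11) the least. A list of 8 genes held *Nfe2l2*, for NRF2, the factor that CUL3 and KEAP1 mark for degradation, and targets of NRF2. Of these 8, 3 were above 0, *Nfe2l2* (0.10 ± 0.13) among them, and 5 below, with a median of -0.13. *Hmox1*, for heme oxygenase 1, was at 16.2 to 125 in WT and 5.24 to 30.2 in Chd8L+/- (log2 fold change -1.55 ± 0.52, adjusted p = 0.127, and 0.0147 without WT replicate 2), and *Gclm*, for a subunit of the enzyme that starts glutathione synthesis, had -0.53 ± 0.25 (adjusted p = 0.212, and 0.0472 without WT replicate 2).

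*Dyrk1a* was counted at 1408, 1179, 1350.0, 1498 and 1270.2 in WT replicates 1 to 5 and between 1056 and 1629.7, with a median of 1300.1, in Chd8L+/-. The Chd8L+/- libraries reached both above and below the WT range, with 2 above and 3 below. In limma its log2 fold change was -0.06 (95% CI -0.33 to 0.22, exact permutation p = 0.646). Its list of 16 genes held the other DYRK kinases and the DREAM complex that DYRK1A activates to silence cell cycle genes. The median was 0.03. Nominally 3 were higher, beside 12.5% of all genes, and none was lower, beside 11.8%. They included *Mybl2*, a gene for a DREAM partner that acts in dividing cells, at 46.4 to 257 in WT and 132 to 262 in Chd8L+/- (log2 fold change 1.05 ± 0.33, adjusted p = 0.124), and *Rbl1*, for the pocket protein p107 (0.40 ± 0.12, adjusted p = 0.123). Without WT replicate 2 the adjusted p was 0.00356 for *Mybl2* and 0.00991 for *Rbl1*, beside 14.0% of all genes called higher. *Dyrk1b* had -0.35 ± 0.25, and its adjusted p was 0.385 with all libraries and 0.0218 without WT replicate 2.

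**Figure D3:**
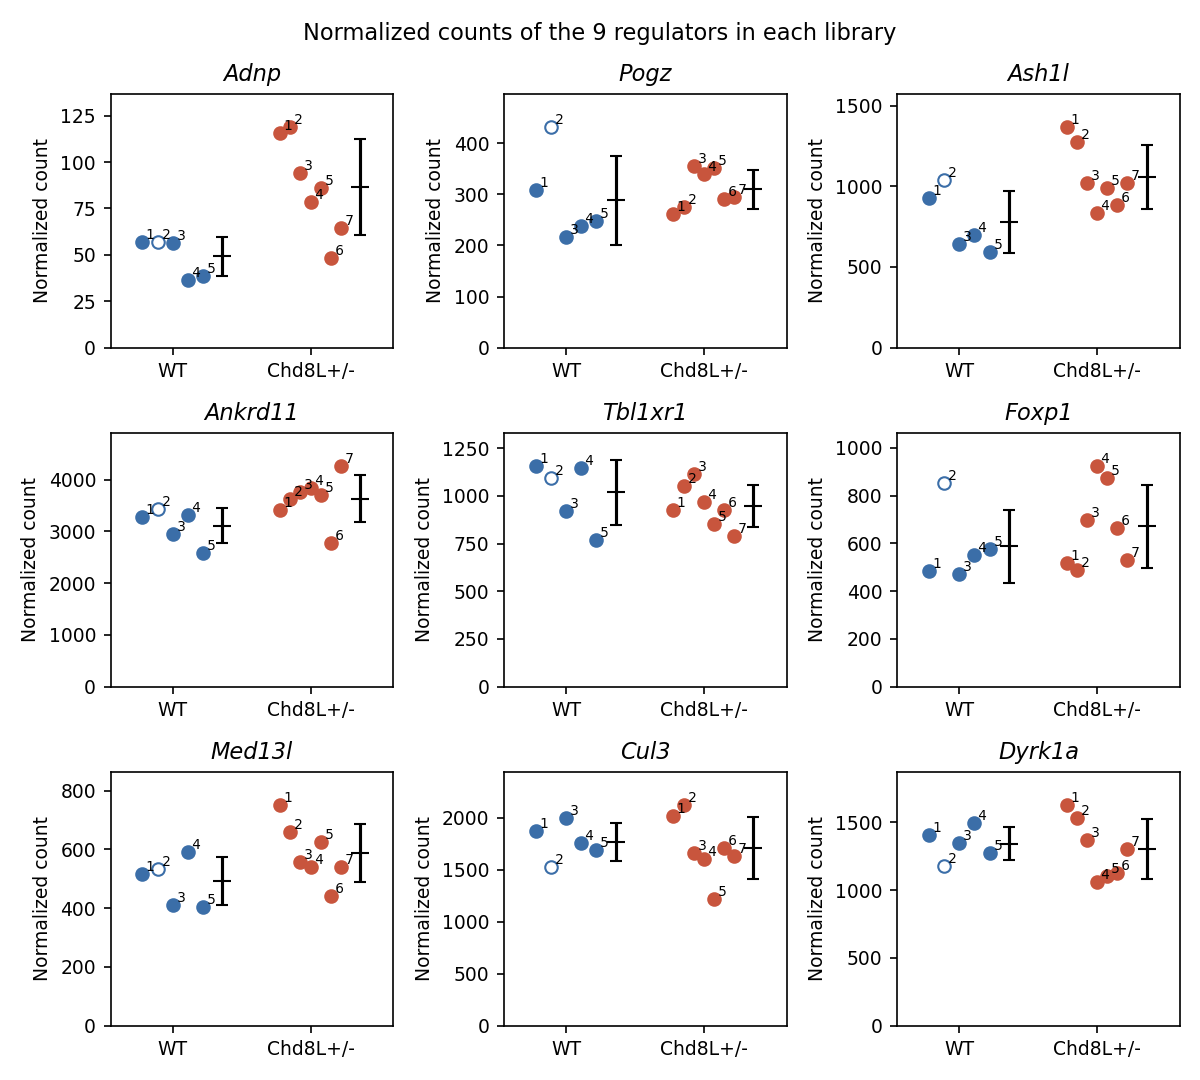
Normalized counts of the 9 regulators in each library, with replicate numbers beside the points, WT in blue (WT replicate 2 open), Chd8L+/- in red, and the mean and SD of each group as black bars. Only *Adnp* has 6 Chd8L+/- libraries above every WT library, *Tbl1xr1* and *Pogz* have none, and WT replicate 2 is the highest library for *Pogz*.

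Across libraries some regulators were high in the same mice and others were not. Chd8L+/- replicates 1 and 2 were the 2 highest libraries for 5 of them, *Adnp*, *Ash1l*, *Med13l*, *Cul3* and *Dyrk1a*, a pattern singled out after the values were seen and held by 5.47% of all tested genes. *Foxp1* was below its own mean in both of these libraries, and so was *Pogz*. WT replicate 5 was below the mean for all 9 and the lowest library for 4, while Chd8L+/- replicate 3 was above the mean for 8. The highest value was between 1.51 times (*Tbl1xr1*) and 3.25 times (*Adnp*) the lowest.

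**Figure D4:**
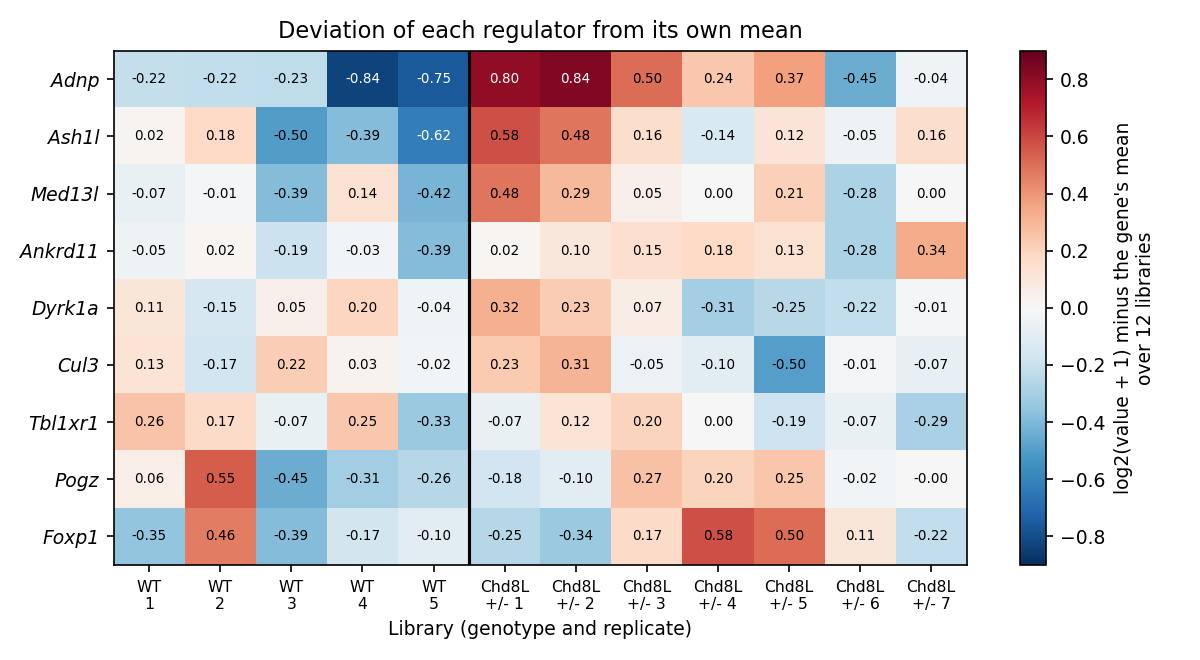
Deviation of each regulator in each library from its own mean over the 12 libraries, as log2(normalized count + 1), with red above and blue below the mean. *Adnp* reaches 0.80 and 0.84 in Chd8L+/- replicates 1 and 2, while *Foxp1* is at -0.25 and -0.34 there and at 0.46 in WT replicate 2.

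The number in the library name (2, 3, 20 or 22) is shared by libraries of both genotypes, and the labels do not say what it stands for. Numbers 2 and 20 held 1 library of each genotype, number 3 held 2 WT and 1 Chd8L+/-, and number 22 held 1 WT and 2 Chd8L+/-. Within these 4 sets Chd8L+/- was above WT, as single values or means, in 4 of 4 for *Adnp* (log2 differences 0.60 to 1.32), *Ash1l* (0.46 to 0.78), *Med13l* (0.35 to 0.60) and *Ankrd11* (0.02 to 0.63). The share of all genes with 4 of 4 was not computed. *Foxp1* ranged from -0.40 to 0.89, *Pogz* from -0.29 to 0.69 and *Cul3* from -0.72 to 0.30, so their direction differed between sets. *Dyrk1a* (-0.29 to 0.29) was higher in 3 of 4 sets and *Tbl1xr1* (-0.28 to 0.29) in 1 of 4. Number 30 held Chd8L+/- libraries only.

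Marker genes of epithelial states and of other cell types were set beside these values, and none passed the adjusted threshold in limma with all libraries. Nominally all 7 tuft cell markers were lower, beside 11.8% of all genes. Of the others, 7 of 8 proliferation and 4 of 7 tested stromal and muscle markers were nominally higher, beside 12.5%. DESeq2 with all libraries called 6 tuft cell markers lower, beside 4.61% of all genes. It called none of the proliferation markers and at most 1 marker in any other list. All 8 proliferation markers had a higher mean in Chd8L+/-, with a summed level of 6933 to 12482 against 2740.4 to 6075 in 4 WT libraries and 11889 in WT replicate 2. All 7 tuft cell markers had a lower mean, with a summed level of 1114 to 7317 against 1904 to 17201. The lowest WT sum, 1904, was that of WT replicate 2, and *Il25* was at 0 in at least 1 library. All 8 stromal and muscle markers had a higher mean, with a summed level of 57.4 to 2389 against 26.7 to 72.7 in 4 WT libraries and 429 in WT replicate 2. Of these markers *Col1a2*, *Col3a1* and *Pdgfra* were at 0 in at least 1 library. All 6 myeloid cell markers had a higher mean as well, with a summed level of 1632 to 3696 against 1079.8 to 1383 in 4 WT libraries and 3052 in WT replicate 2, and none was at 0 in any library. Enterocyte markers had a higher mean in Chd8L+/- for 2 of 8, with a summed level of 266316 to 628195 against 322522 to 700027, the low WT end being WT replicate 2. Crypt and stem cell markers did for 5 of 7, with 7690.4 to 16048 against 4954 to 9245 in 4 WT libraries and 13187 in WT replicate 2. Of the other lists, the mean was higher in Chd8L+/- for 1 of 6 B cell, 2 of 6 T cell and 1 of 5 goblet cell markers. It was higher for 3 of 6 enteroendocrine, 3 of 4 endothelial, 1 of 2 enteric neuron and glia and 2 of 8 epithelial markers. In bulk RNA alone, fewer cells of a type and less RNA per cell cannot be told apart. For tuft cells the paper also stained DCLK1 and counted fewer positive cells in the Chd8L+/- small intestine, with no change in the colon. It proposes that the lower marker expression came from the lower tuft cell count. The part of these markers in the differences of *Adnp*, *Ash1l* and *Cbx5* was not tested.

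Beside the 9 regulators, 33 other autism-linked regulator genes were tested. Nominally 6 were higher, beside 12.5% of all genes, and none was lower, beside 11.8%. Their median log2 fold change was 0.06, beside 0.01 over all genes. With length and GC trends removed it was -0.11, beside -0.02 over all genes. *Rai1*, for a chromatin protein of Smith-Magenis syndrome, was at 159 to 274 in WT and 239 to 312 in Chd8L+/- (log2 fold change 0.61 ± 0.15, adjusted p = 0.121 in limma). Its relative *Tcf20* was at 485 to 621 and 617 to 836 (0.40 ± 0.11, adjusted p = 0.121). Without WT replicate 2 the adjusted p was 0.00266 for *Rai1* and 0.01005 for *Tcf20*. Over the 12 lists of partner and related genes, which hold 141 tested genes, none passed the adjusted threshold in limma with all libraries. Without WT replicate 2, 17 of the 141 were called higher and 10 lower, beside 14.0% and 13.6% of all genes. DESeq2 with all libraries called 8 of them. Higher, beside 1.84% of all genes, were *Rai1*, *Tcf20*, *Setd5* and *Med1*. Lower, beside 4.61% of all genes, were *Morf4l1*, *Kctd13*, *Hmox1* and *Dyrk4*. Of these 8, *Setd5* and *Dyrk4* are named for this call alone.

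**Figure D5:**
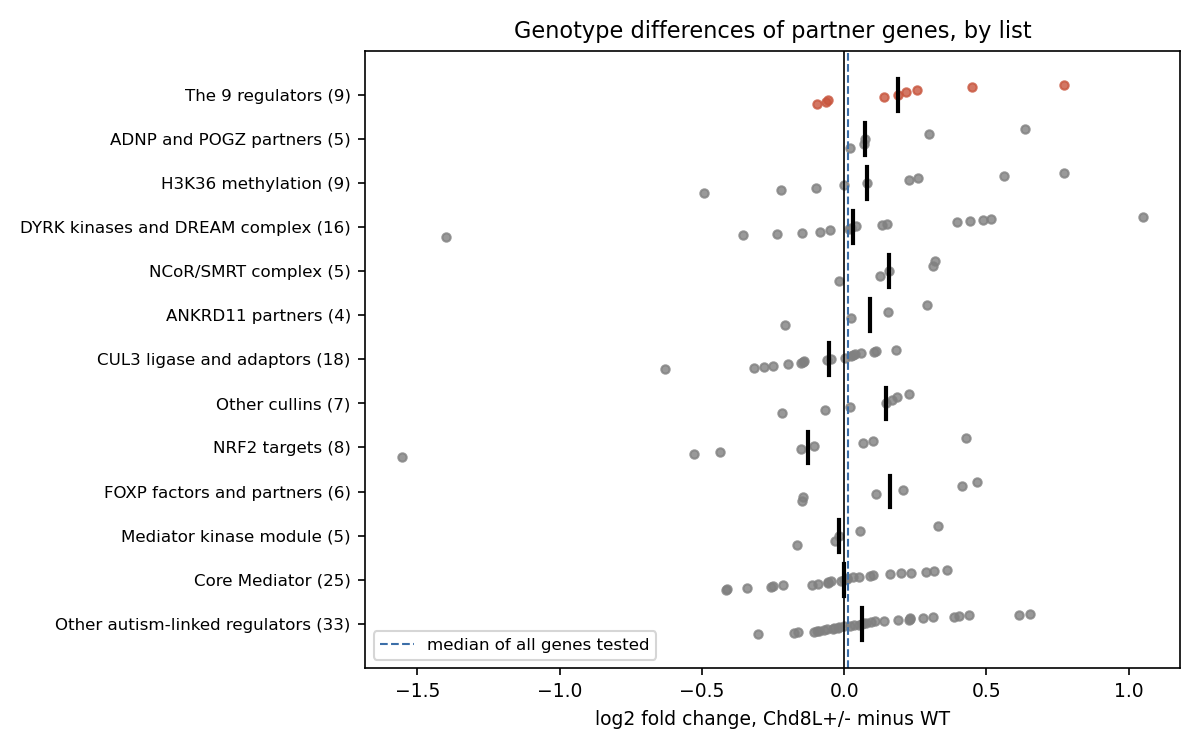
The log2 fold change (Chd8L+/- minus WT) of each tested gene of the 9 regulators (red) and of 12 lists of partners and related genes (grey), with the number tested in brackets, a black bar at each list's median and a dashed line at the median of all genes tested. The medians of the partner lists lie between -0.13 (NRF2 targets, a list that includes *Nfe2l2* itself) and 0.16, and that of the 9 regulators is 0.19.

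The 5 genes with the profile most like the mean centred profile of the 9 regulators over the 12 libraries were *Ankrd17*, *Pbrm1*, *Zfp646*, *Prkca* and *Epc2*. Their mean absolute difference from it was 0.05 to 0.06 on the log2 scale, against a median of 0.33 over all tested genes outside the members. *Ankrd17* was at 1429 to 1969.5 in WT and 1674 to 2295 in Chd8L+/-, a log2 fold change of 0.27 ± 0.12. These 5 genes were picked by closeness to a profile that itself holds the genotype difference, so no test of genotype is given for them. *Adnp* itself, at 0.33, was no nearer to the mean profile than the median gene, and *Ankrd11*, at 0.11, was the nearest member.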

How the data were processed

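Poly(A) RNA of gut epithelial cells from 5 WT and 7 Chd8L+/- mice was sequenced, and per the study's methods reads were mapped to mm10 with Tophat2 and compared with DESeq2. The counting program, annotation and strand setting are not given in the sources used here. The authors deposited a gene table of normalized counts (a signal scale, each library divided by a size factor). Each value was a whole number of reads times a per-library constant, within 0.000147 reads for 100% of values, so whole reads were recovered (15691662 to 20761315 per library), and with 5 and 7 libraries precision is set by the spread between mice. Of 14244 rows, 21 had date-like names and 4 carried repeated names. No column belonged to another sample (0).

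Genotypes were compared on log2(value + 1) with limma 3.58.1 (lmFit, eBayes with trend; R 4.3.3) for the 12808 genes with a mean of at least 10, with Benjamini-Hochberg adjustment over all of them and a threshold of 0.05; fold changes of low genes are understated on this scale. Groups followed the labels. Each regulator was also tested with a two-sided exact permutation test, 9 tests, not adjusted. Alternatives used edgeR 4.0.16 and DESeq2 1.42.0 on recovered reads, sva 3.50.0, other pseudocounts, filters and scaling, blocks, and leaving out each library. Only the main limma fit was tested on simulated reads with known changes, drawn without an outlying library. The alternatives were not tested in this way. Lengths, exons and positions came from GENCODE M21 (GRCm38) and promoter windows from RefSeq (GRCm38.p6, 8 of 9 members matched). Named genes were *Chd8*, the 9 regulators, the 2 genes with the smallest p in each list, listed paralogs and the 5 genes nearest to the mean profile. The members and lists were chosen with earlier results of these data known.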

Additional observations from a re-analysis of the deposited data

How the results depend on the processing

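The number of regulators past the threshold was 0 with all libraries and 0 to 2 when 1 library was left out, the 2 being *Adnp* and *Ash1l* without WT replicate 2. It was 1 with DESeq2, and with WT replicate 2 left out, chosen after seeing the data, it was 2 with DESeq2, 1 with length and GC trends removed and 3 with the library number as a block. The number of all genes past it was 3, and 0 to 3533 when 1 library was left out, with 3533 without WT replicate 2. It was 5 with edgeR, 811 with DESeq2, 451 with the letter of the library name as a block, and 0 with the library number as a block, with the replicate block and with length and GC trends removed. Without WT replicate 2 it was 4112 with DESeq2, 2262 with the number block and 3575 with the trends removed. The cause was not tested. The same-numbered replicates of the 2 genotypes did not vary together (correlations of -0.34 to 0.19 over 5 pairs). The labels do not say whether the replicate numbers pair the mice, and 5 correlations cannot settle it. With the replicate block the log2 fold change of *Adnp* was 0.999 (adjusted p = 0.211), that of *Ash1l* 0.50 (adjusted p = 0.211), and the median of the 9 was 0.24. Of 6 pairs of both genotypes with the same library number, correlations ran from -0.38 to 0.22.

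Over 28 alternatives *Adnp* kept its direction, at 0.62 to 1.06, as did *Ash1l* (0.26 to 0.71), *Ankrd11* (0.08 to 0.37), *Med13l* (0.09 to 0.45), *Tbl1xr1* (-0.28 to -0.02) and *Chd8* (0.28 to 0.55). With 1 surrogate variable the sign turned for *Pogz* (-0.28), *Dyrk1a* (0.14), *Cul3* (0.16), *Foxp1* (-0.26), *Cbx3* (-0.25), *Gclm* (0.0790), *Ccnc* (3.23e-05), *Dyrk1b* (0.29), *Cul1* (0.24), *Cul5* (-0.0697) and *Cul9* (-0.0685). With quantile normalization it turned for *Dyrk1a* (0.0437), *Cul3* (0.0526), *Adnp2* (-0.00499), *Cul1* (0.0422) and *Cul9* (-0.14). *Dyrk1a* also turned with the library number as a block (0.0677, and 0.0105 without WT replicate 2). With length and GC trends removed it turned for *Ncoa2* (-0.00968, and -0.0161 without WT replicate 2), *Adnp2* (-0.0322 and -0.00143), *Med13* (-0.14 and -0.25), *Prkca* (-0.0438 and -0.0597) and *Cul9* (-0.12). *Med13* turned with the letter block (-0.0470), as did *Cul9* (-0.15), which also turned with DESeq2 (-0.0133) and the replicate block (-0.0342). Leaving out 1 library turned *Cul3* (-0.12 to 0.0152, above 0 without Chd8L+/- replicate 5), *Cul1* (-0.15 to 0.00120), *Med13* (-0.00868 to 0.15) and *Cul9* (-0.16 to 0.15). All of these genes had an adjusted p over 0.2 in the fit over all libraries. Depth limits *Adnp* most, at 31 reads in its lowest library. In 20 groups (each of the 9 regulators and *Chd8* in each genotype) no library stood apart by Dixon's ratio.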
